A study of Mus musculus with 4 samples.

Results

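Human B cells without detected TCL1A were followed in the blood of mice with a human immune system. A cell belonged to this population when over 50% of its unique molecular identifiers (UMIs, 1 per captured transcript) lay on human genes, at least 500 human genes were detected, the B cell genes MS4A1 and CD79A each had at least 1 UMI, and TCL1A, the plasma cell receptor gene TNFRSF17 and the T cell genes CD3D, CD3E and CD3G had 0. The cells were thus selected on measured values of these 7 genes, and no difference in them is given as a result. The gate held 718 of 17842 human cells, among 2579 B cells of which the other 1861 had TCL1A UMIs.

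All mice were huNSG-SGM3, an immunodeficient strain with the alleles Prkdcscid and IL2rgtm1Wjl on a NOD.Cg background and the transgene Tg(CMV-IL3,CSF2,KITLG)1Eav/MloySzJ, by which the CMV promoter drives human IL-3, GM-CSF and stem cell factor. They were engrafted as pups with CD34+ stem cells from human cord blood. The labels give an age of 15 weeks, whereas the study places surgery at that time after engraftment. Naïve mice had no treatment and were male, sham mice had a T9 laminectomy and were male, and SCI mice had a T9 spinal cord injury and were pooled from both sexes, with operated mice taken at 7 days. Sorted human CD45+ cells of pooled animals were profiled by droplet-based 3' scRNAseq. Each blood condition had 1 library, as had the injured cord, so that host sex, pool and library cannot be told apart from condition, and no test between conditions was possible.

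TCL1A is a co-activator of AKT that is high in immature and naïve B cells and is lost as B cells mature. Memory B cells are descendants of cells that met antigen; many carry CD27 and the integrin β1, and many have replaced IgM and IgD by IgG, IgA or IgE through class switching. Atypical (also called age-associated or T-bet+) B cells are an antigen-experienced type known for CD11c (the product of ITGAX), T-bet (TBX21), SOX5 and Fc receptor-like proteins, and they accumulate in chronic infection and autoimmunity. Humanised mice are known for B cells that are mostly of an immature or naïve kind.

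Naïve blood held 456 such cells, sham blood 94, SCI blood 166 and the cord 2. They made up 39.5% of the B cells from naïve mice (exact binomial 95% interval 36.7 to 42.4%), 17.0% of those from sham mice (14.0 to 20.4%) and 19.2% of those from SCI mice (16.6 to 22.0%). Of all human cells they were 6.92%, 1.92% and 2.67%, while TCL1A-positive B cells were 10.6%, 9.37% and 11.2%. The share in naïve blood thus stood above both others and the intervals of sham and SCI overlapped; all such intervals cover counting error only and say nothing of the spread between mice.

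A count of 0 for TCL1A depends on depth, and the naïve cells were the shallowest. Median UMIs per TCL1A-negative cell were 3907.5, 6221.5 and 5333.5 for the naïve, sham and SCI libraries, against 3435.5, 5632 and 4793 in TCL1A-positive cells. With each cell thinned to 1000 UMIs and the gate applied again, the shares were 59.1%, 47.3% and 51.3%. At 3000 UMIs, where shallower cells are left out, they were 46.8%, 29.2% and 27.2%. Naïve blood was highest at each depth, and the ratio to the other libraries was smaller than without thinning.

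**Figure D1:**
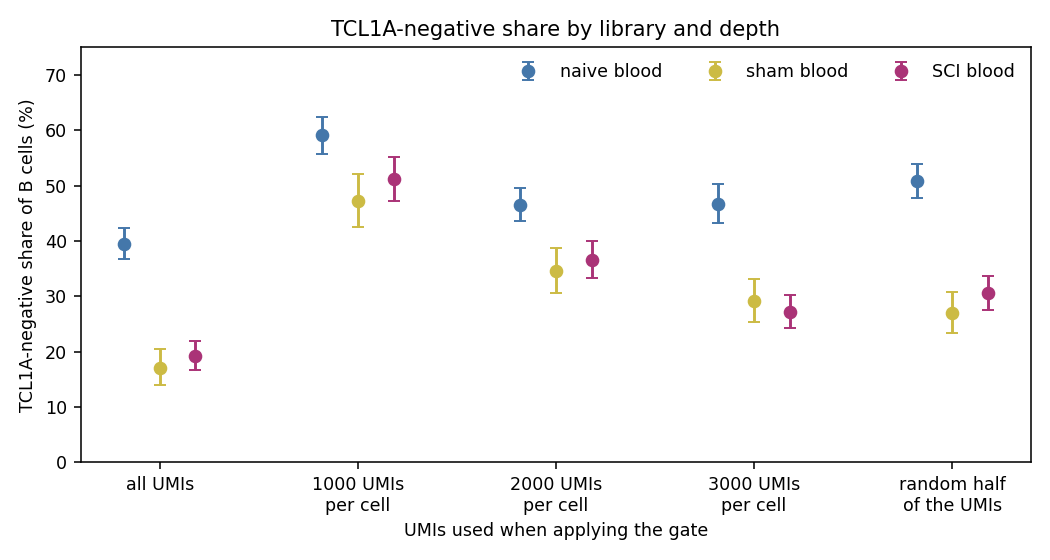
Share of the gated B cells without TCL1A UMIs (%, y axis) in naïve, sham and SCI blood when the gate was applied to all UMIs, to 1000, 2000 or 3000 UMIs per cell, or to a random 50% of the UMIs (x axis); bars are exact binomial 95% intervals. Naïve blood is highest in every setting, at 39.5% with all UMIs and 59.1% at 1000 UMIs per cell.

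TCL1A that escaped capture was measured by drawing 50% of the UMIs, applying the gate to them and reading TCL1A in the remainder. Of the cells called negative on the draw, 23.3% (naïve), 36.8% (sham) and 38.5% (SCI) held TCL1A in the remainder, against 77.0%, 85.5% and 83.3% of those called positive. In T cells of the same libraries, used here as a reference for free RNA, the share was 0.147%, 0.174% and 0.238%. A gate on fewer UMIs thus took in cells that carried TCL1A; the share at full depth cannot be read this way.

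The cells just inside and outside the TCL1A threshold differed in the marker genes. AIM2 stood at 82.3, 61.0 and 25.6 CPM (counts scaled to a common total, here of all human UMIs) in naïve, sham and SCI cells with 0 TCL1A UMIs, and at 5.60, 0 and 0 in those with 1 UMI. VPREB3, which binds the immunoglobulin heavy chain in early B cells, was at 47.4, 36.9 and 66.2 with 0 UMIs and at 142, 120 and 101 with 1 UMI. Irrespective of TCL1A, 165, 79 and 165 cells with MS4A1 and CD79A were left out for CD3 UMIs, and 79, 20 and 38 for TNFRSF17.

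The label of the population as memory and atypical B cells was set beside its markers ITGAX, SOX5, AIM2 and IGHG1. Like the gene lists that hold them, these were chosen with earlier results of these data known. Their excess over TCL1A-positive cells, here and below, is therefore no independent support for the label. At least 1 UMI of any of the 4 was present in 42.5% of the naïve cells (194 of 456), 47.9% of the sham cells (45 of 94) and 30.1% of the SCI cells (50 of 166). The same share was 11.7%, 14.2% and 8.45% in TCL1A-positive cells and 3.14%, 2.64% and 1.88% in T cells. More than 50% of the cells in each library thus showed none of the 4 markers, so the population is called TCL1A-negative here. The 2 cells from the cord had 0 UMIs of all 4, with 39540 and 10424 UMIs in all, and the cord is not considered further.

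To see what set these cells apart from TCL1A-positive B cells, counts were summed per blood library and cell population, and the 2 populations of each library were compared with edgeR's quasi-likelihood test with the library as a block. From here on, levels are CPM of summed counts without ribosomal and mitochondrial genes. Of 9357 genes tested, 391 were higher (4.18%) and 290 lower (3.1%) at a Benjamini-Hochberg adjusted p under 0.05. The 3 libraries differ in condition, so the test measures how far the difference held across them. With the gate applied to a random 50% of the UMIs and levels read from the rest, so that calls and levels came from separate UMIs, 213 of 7900 genes were higher and 145 lower.

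Genes of memory B cells were higher in the TCL1A-negative cells. Of 13 memory genes tested, 9 rose and 1 fell, with a median log2 fold change of 0.94 against -0.01 over all genes tested. AIM2, a sensor of cytosolic DNA, stood at 115, 87.0 and 38.5 CPM in naïve, sham and SCI cells against 8.04, 4.23 and 3.80 CPM in TCL1A-positive cells, a log2 fold change of 3.87 (SE 0.24, edgeR adjusted p = 8.5e-10). All 3 TCL1A-negative values lay above all 3 TCL1A-positive ones. Such a lack of overlap was also seen in genes that did not pass. Examples are HLA-DRA (log2 fold change -0.02, edgeR adjusted p = 0.88) and TRBC2 (-0.19, edgeR adjusted p = 0.37). The share of all genes tested without overlap is not given here, so lack of overlap is a description only. CD27, the TNF receptor family member most used to define memory, was at 131, 64.1 and 48.1 CPM against 27.6, 11.6 and 24.1 CPM (1.93, SE 0.21). CD80, a ligand for co-stimulation of T cells, was at 48.7, 41.2 and 44.9 CPM against 8.04, 6.87 and 10.1 CPM (2.44, SE 0.26). For both genes the populations did not overlap.

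TNFRSF13B encodes TACI, a receptor for the survival factors BAFF and APRIL. It was at 634, 469 and 497 CPM against 278, 248 and 238 CPM, a log2 fold change of 1.09 (SE 0.09, edgeR adjusted p = 5.3e-08). The member that fell was PLAC8, by 0.27 on the log2 scale. GPR183, an oxysterol receptor that guides B cell position, had a log2 fold change of 0.13 with an edgeR adjusted p of 0.55. CD86 was at 99.7, 32.0 and 19.2 CPM against 21.2, 29.6 and 28.7 CPM, so that only the naïve cells stood clearly above their counterparts (1.03, SE 0.32, edgeR adjusted p = 0.053). Without the naïve library its log2 fold change was -0.21, and over the alternatives its adjusted p ranged from 6.5e-11 to 1.0.

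A related list of annexins, S100 proteins and cytoskeletal genes, known to be raised in memory lymphocytes, rose in all 12 of its 12 genes, with a median of 0.69. S100A10, which forms a complex with annexin A2, was at 4220, 3138 and 3349 CPM against 1606, 1371 and 1389 CPM (1.31, SE 0.06, edgeR adjusted p = 2.9e-12). ANXA1 was at 234, 343 and 268 CPM against 68.9, 62.9 and 90.8 CPM (1.93, SE 0.13). ITGB1, the integrin β1 chain, was at 597, 279 and 165 CPM against 93.0, 96.7 and 79.8 CPM (1.85, SE 0.19). S100A4, S100A6, S100A11, ANXA2, LGALS1, VIM, CRIP1 and EMP3 did not overlap between populations either, at log2 fold changes from 0.47 to 1.05, and AHNAK overlapped.

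Heavy chain constant genes of the switched isotypes were higher. Of 9 genes, 7 rose (IGHM, IGHG1, IGHG2, IGHG3, IGHG4, IGHA1 and IGHE) and IGHD fell, with a median of 2.18. IGHG1 was at 67.6, 64.1 and 38.5 CPM against 7.46, 3.17 and 1.69 CPM (3.81, SE 0.31), IGHG3 at 37.1, 45.8 and 51.3 CPM against 14.3, 8.98 and 6.33 CPM (2.18, SE 0.30) and IGHA1 at 300.4, 208 and 205 CPM against 170, 110 and 102 CPM (0.94, SE 0.11). IGHE, at 26.2, 16.0 and 24.0 CPM, was higher by 2.33. The IGHG genes, and likewise IGHA1 and IGHA2, are close to identical in sequence, and how reads divide among them is uncertain.

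IgM remained in nearly every cell. UMIs of IGHM were present in 99.8%, 100% and 100% of the TCL1A-negative cells, and its level was 10120, 5761 and 8369 CPM against 6551, 6128 and 6752 CPM. IGHM was higher in the naïve and SCI libraries and lower in the sham library (0.31 on the log2 scale, edgeR adjusted p = 0.015). That call was lost in 6 of 13 alternatives, among them leaving out the naïve library (0.15, within a range of 8.5e-12 to 1.0). IGHM was also seen in 54.1% of the T cells in the naïve library but in 8.30% and 6.97% in the other 2, and the part of free IgM transcripts in the IGHM levels was not tested. IGHD, which is lost on switching and lowered in memory, was at 353, 492 and 519 CPM against 870, 842 and 789 CPM and fell by 0.88 (SE 0.10, edgeR adjusted p = 6.4e-06).

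At 1000 UMIs per cell, any IGHG gene was seen in 7.52%, 9.57% and 7.27% of the TCL1A-negative cells. The TCL1A-positive cells had 1.15%, 1.53% and 0.287%, and the T cells 0.320%, 0 and 0. Without thinning the TCL1A-negative shares were 20.8%, 26.6% and 18.7%. For IGHA the thinned shares were 18.4%, 11.7% and 7.27%, against 9.89%, 6.32% and 5.30% in TCL1A-positive cells. Any switched isotype was seen in 24.3%, 22.3% and 14.5% of the cells at 1000 UMIs and in 61.4%, 66.0% and 56.6% without thinning, where TCL1A-positive cells had 32.5%, 28.3% and 25.2% and T cells 1.91%, 0.145% and 0.262%. The share of cells with switched transcripts therefore depended on depth, and exceeded that of TCL1A-positive cells in each library.

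**Figure D2:**
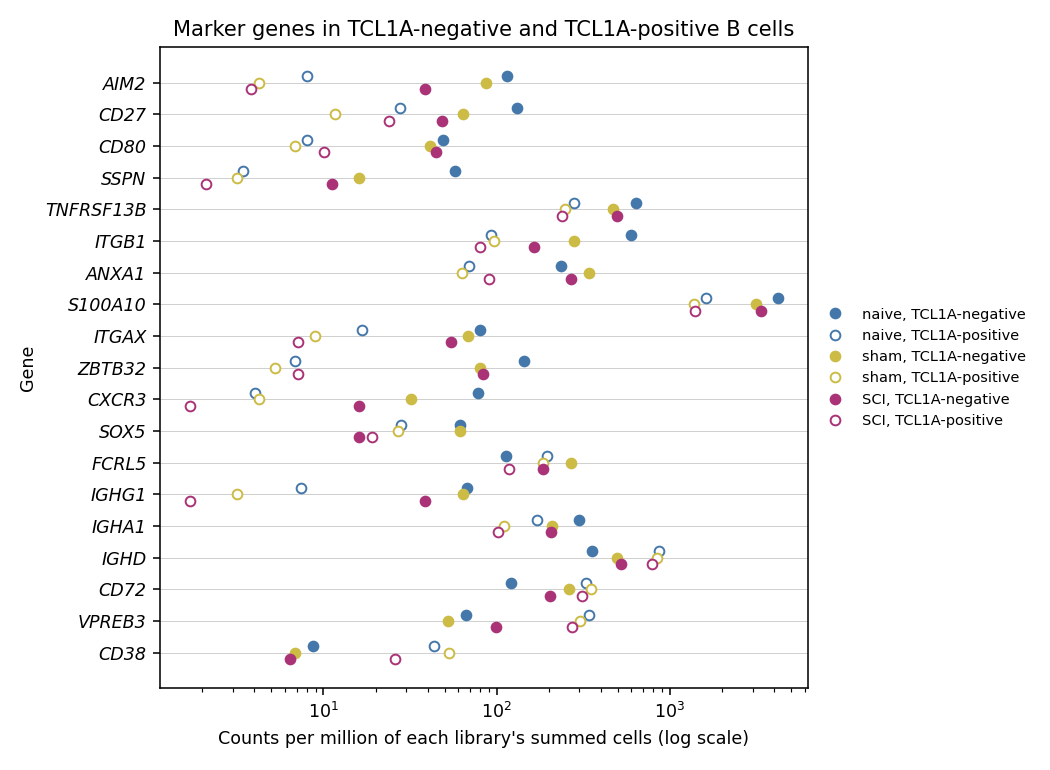
Level of 19 marker genes (CPM, log axis) in TCL1A-negative (filled) and TCL1A-positive (open) B cells of naïve, sham and SCI blood, 1 point per library and population. AIM2, CD27, CD80, ITGB1, ITGAX, ZBTB32, CXCR3 and IGHG1 lie higher in all TCL1A-negative sums, IGHD, CD72, VPREB3 and CD38 lower, while SOX5 and FCRL5 overlap.

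Of 16 atypical B cell genes tested, 11 rose and none fell, with a median of 0.55, and 20 were listed. ITGAX was at 80.0, 68.7 and 54.5 CPM against 16.6, 8.98 and 7.18 CPM (2.64, SE 0.22, edgeR adjusted p = 7.3e-08). ZBTB32, a transcriptional repressor that restrains recall responses of memory B cells, had the highest log2 fold change of the named genes at 3.97 (SE 0.21) and stood at 145, 80.1 and 83.3 CPM against 6.89, 5.28 and 7.18 CPM. CXCR3, a receptor for chemokines induced by interferon gamma, was at 77.8, 32.0 and 16.0 CPM against 4.02, 4.23 and 1.69 CPM (3.63, SE 0.34). None of the 3 overlapped between populations.

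Other atypical markers were less far apart. SOX5 was at 61.1 and 61.8 CPM in naïve and sham cells but at 16.0 CPM in SCI cells, against 28.1, 27.0 and 19.0 CPM. Its log2 fold change of 0.90 passed the edgeR test (adjusted p = 0.017), which was lost without the naïve library (0.339) or the sham library (0.0852), within a range of 1.1e-05 to 0.62 over the alternatives. TBX21 had low levels of 19.6, 18.3 and 16.0 CPM against 7.46, 12.2 and 4.64 CPM (1.26, edgeR adjusted p = 0.033, a call lost in 5 of 12 alternatives over a range of 0.0063 to 0.54). FCRL3 passed at 0.58 and lost its call in 8 of 14 alternatives. ZEB2, FCRL2, MPP6 and FCRL5 were among those that did not pass, and FCRL4, a marker of tissue-based memory cells, had 2 UMIs in all TCL1A-negative cells.

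Genes of naïve and transitional B cells lay at the other end. Of 14 tested, 8 fell, none rose and the median was -0.77. VPREB3 was at 66.2, 52.6 and 99.4 CPM against 340, 302 and 271 CPM and fell by 2.05 (SE 0.15, edgeR adjusted p = 1.6e-08). CD38, an ectoenzyme high on transitional cells, was at 8.73, 6.87 and 6.41 CPM against 43.6, 52.8 and 25.7 CPM. CD72, an inhibitory co-receptor, was at 121, 261 and 202 CPM against 329, 352 and 311 CPM, and BACH2, a repressor that holds back plasma cell fate, at 50.9, 29.8 and 72.1 CPM against 85.5, 87.7 and 89.9 CPM. These 4 did not overlap. FCER2 (CD23), IL4R, CD24, SOX4, PLPP5 and ACSM3 did not pass. The precursor genes RAG1, RAG2, CD34 and ERG had 0 UMIs in both populations, and VPREB1 and IGLL1 had 0 in TCL1A-negative cells.

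By size of change, the 10 highest genes also held SSPN, FAM129A, BIK, a pro-apoptotic BCL2 family member, and RAB33A. SSPN (sarcospan) was at 57.5, 16.0 and 11.2 CPM against 3.44, 3.17 and 2.11 CPM (3.21, SE 0.40). The 10 lowest were TCL1B, AL139020.1, APCDD1, CD38, LAMP5, NEIL1, VPREB3, TSPAN13, RIMBP2 and CCDC191, with log2 fold changes from -3.91 to -1.65. TCL1B lies beside TCL1A in the genome and belongs to its family, so its change is not independent of the gate. NEIL1, a glycosylase of base excision repair, was at 13.1, 18.3 and 16.0 CPM against 62.0, 71.9 and 78.5 CPM. RIMBP2 was the one named gene whose populations overlapped, at 2.91, 2.29 and 9.62 CPM against 5.17, 10.0 and 47.3 CPM.

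Among the remaining lists, the type I interferon response was lower in TCL1A-negative cells, with 9 of 28 genes down, none up and a median of -0.35. The clearest were IFIT1, which fell by 0.75, and RSAD2, which fell by 0.75, while ISG15 had a log2 fold change of -0.02. Of 18 genes of B cell receptor signalling, CD22 and CD79B fell by 0.58 and 0.34 and the other 16 did not pass. Of 14 MHC class II genes, HLA-DMA, HLA-DMB and HLA-DOB, all of them tied to the control of peptide loading, fell by 0.31, 0.65 and 0.81, and none rose. Of 13 B cell transcription factors, BHLHE41, POU2F2 and RUNX3 rose by 1.65, 0.33 and 0.37, and IRF8 and POU2AF1 fell by 0.50 and 0.38.

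Of 12 homing receptors, CXCR3, CD44 and ITGB7 rose and CXCR4 and CCR6 fell. CXCR4, which holds B cells in the bone marrow and germinal centre dark zone, was at 97.5, 87.0 and 112 CPM against 232, 164 and 192 CPM (-0.98, SE 0.12). Of 10 survival genes, TNFRSF13B, BCL2 and BCL2A1 rose and PIM1 fell. Of 8 plasma cell genes, JCHAIN, MZB1 and DERL3 fell by 0.65, 0.70 and 1.5, and SDC1 had 0 UMIs. The gate left cells with the plasma cell receptor gene TNFRSF17 out of both populations, so low levels of this list are not independent of it. Neither the 6 marginal zone genes nor the germinal centre genes (2 tested of 9) had a member that passed. In the activation list of 14, CD83 rose and FOS fell. MKI67 was the 1 cell cycle gene of 6 that passed, at 42.9, 48.1 and 4.81 CPM against 10.9, 11.1 and 9.71 CPM.

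**Figure D3:**
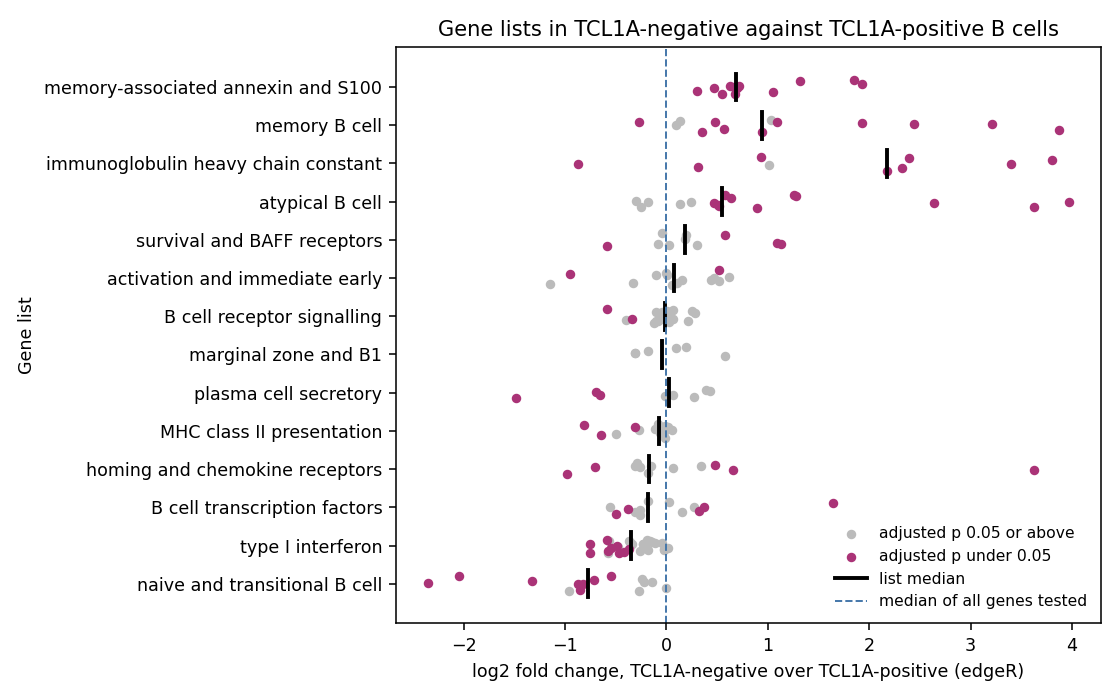
Log2 fold change (x axis, edgeR) of each tested gene of 14 lists in TCL1A-negative over TCL1A-positive B cells, 3 blood libraries. Points in colour had an adjusted p under 0.05, the black bars are list medians and the dashed line the median of all 9357 genes (-0.01). Memory, annexin and S100, heavy chain and atypical lists lie to the right, naïve and interferon lists to the left.

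Markers of other cells were read in the same sums. The 13 T cell markers summed to 190 to 224 CPM in TCL1A-negative and 232 to 263 CPM in TCL1A-positive cells, with no tested member called. The 9 monocyte and neutrophil markers stood at 38.6, 1927 and 33.7 CPM against 1096, 26.4 and 670 CPM, and in sham blood 820 of the 842 UMIs lay in 1 barcode. The NK and cytotoxic list was at 80.0, 87.0 and 56.1 CPM against 62.0, 32.2 and 36.7 CPM, with NKG7 and CCL5, the 2 members tested, called higher and GZMB, KLRD1 and NCAM1 at 0 to 1 UMI in TCL1A-negative cells of each library. The 5 erythroid and platelet markers were at 0 in all 3 TCL1A-negative sums, and the plasmacytoid dendritic cell list was at 32.7, 48.1 and 112 CPM with its defining gene CLEC4C at 0. Of the basophil and mast cell list, all 24 naïve UMIs and 113 of the 116 SCI UMIs each lay in 1 barcode. Cells of either population that held UMIs of 8 T cell, monocyte or mast cell genes were also left out. Then 175 of 7878 genes were higher and 123 lower.

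The TCL1A-negative cells were not uniform. The ITGAX and AIM2 messages were read together in 30 of the 75 naïve cells with ITGAX (40.0%, interval 28.9 to 52.0%) and AIM2 in 68 of the 381 without it (17.8%, 14.1 to 22.1%). In SCI blood the shares were 6 of 23 (26.1%) and 12 of 143 (8.39%), and in sham blood 3 of 19 (15.8%) and 19 of 75 (25.3%), with intervals that overlapped in both. ITGB1 was found with AIM2 in 86 of 98 naïve cells (87.8%) and in 164 of 358 cells without AIM2 (45.8%). In sham blood the shares were 17 of 22 (77.3%) and 29 of 72 (40.3%). In SCI blood they were 8 of 18 (44.4%, 21.5 to 69.2%) and 50 of 148 (33.8%, 26.2 to 42.0%), with intervals that overlapped. These shares are descriptions, since a cell with more UMIs shows more of every gene.

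Clustering of the 716 blood cells gave 5 clusters, which are described by their leading genes and were not tested. A cluster of 177 cells was led by SSPN and CXCR3 and held CD86 and AIM2 among its 10 leading genes; with 3 memory markers there it is called memory-like. It had the highest CD27 (221 CPM), AIM2 (219 CPM), ITGB1 (861 CPM) and IGHG1 (139 CPM) of the 5. CXCR3 (158 CPM) and ZBTB32 (259 CPM), both of the atypical list, were also highest there. Of the same list, FCRL5 (94.5 CPM) was lower than in the clusters of 293 (169 CPM), 198 (166 CPM) and 32 cells (649 CPM). SOX5 (93.1 CPM) and TBX21 (30.1 CPM) were lower only than in the cluster of 32 cells. The name thus does not set this cluster apart from atypical cells. A small cluster of 32 cells, led by RTN4R, TREM1, PHEX and MPP6, had the highest ITGAX (248 CPM), SOX5 (181 CPM), TBX21 (115 CPM) and FCRL5 (649 CPM). In that cluster CD27 was at 0 and AIM2 at 9.55 CPM, whereas IGHD was at 1337 CPM, CD72 at 926 CPM and PCDH9 at 497 CPM.

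ITGAX was highest in these 2 clusters (248 and 149 CPM), which differed in CD27 and AIM2 on one side and in TBX21, FCRL5 and IGHD on the other. A cluster of 198 cells was led by ADAM28, MARCH3 and VPREB3, with VPREB3 at 207 CPM, IGHD at 649 CPM and the lowest S100A10 (1264 CPM). The largest cluster, of 293 cells, was led by CTBP2, MCTP2 and TNFRSF18 and had S100A10 at 3849 CPM and ANXA1 at 339 CPM but AIM2 at 34.3 CPM and CD27 at 42.4 CPM. The last 16 cells were led by mitotic genes such as UBE2C and RRM2, with MKI67 at 584 CPM and IGHM at 34644 CPM. All clusters had cells from all 3 libraries, although the mitotic cluster had 13 from naïve, 2 from sham and 1 from SCI blood. The sizes of the clusters are not compared between conditions, because SSPN, CXCR3 and other leading genes themselves differed between libraries. For such genes, a change within cells and a change in the mix of clusters cannot be told apart here.

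**Figure D4:**
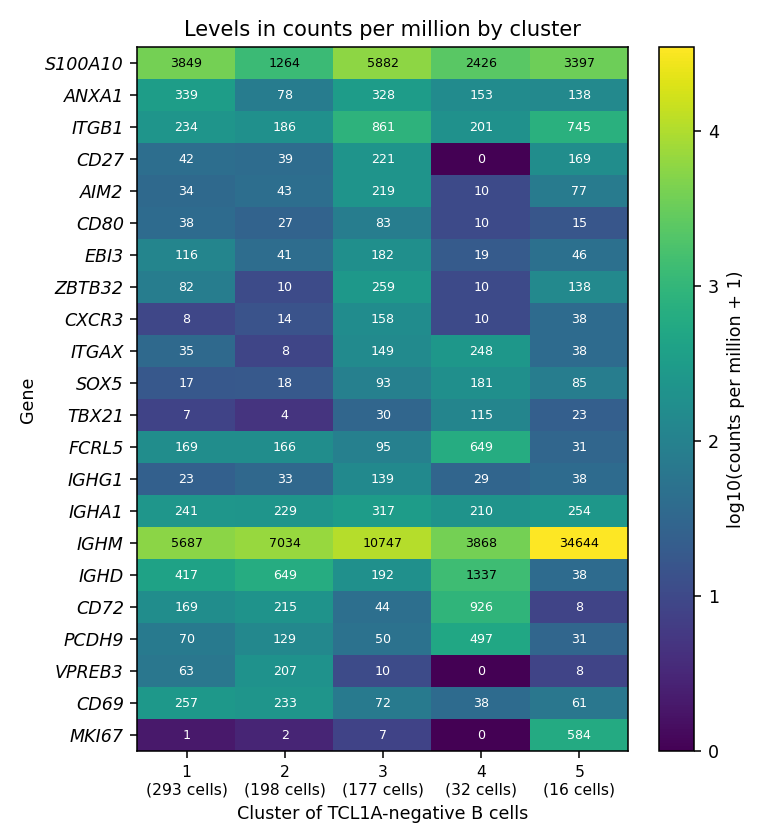
Level of 22 genes (rows) in the 5 clusters of TCL1A-negative B cells of the 3 blood libraries (columns); numbers are CPM over each cluster's summed counts and colours log10(CPM + 1). Cluster 3 is highest for CD27, AIM2, ITGB1 and IGHG1, cluster 4 for ITGAX, SOX5, TBX21 and FCRL5, cluster 2 for VPREB3 and cluster 5 for MKI67.

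The conditions were then compared within the TCL1A-negative cells, to see whether surgery or cord injury went with a different state. Ratios are given for genes whose counts summed to at least 20 in the compared pair, with 0.5 counts added and conditional binomial 95% intervals for counting error. Sham against naïve and SCI against naïve share the naïve library, and SCI against sham shares a library with each of them. Sham cells had 148 of 8224 genes at least 2-fold higher (1.8%) and 274 lower (3.33%) than naïve cells. For SCI against naïve these were 184 (2.18%) and 283 (3.35%) of 8439, and for SCI against sham 141 (2.06%) and 152 (2.22%) of 6846.

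Some memory-associated genes were highest in naïve blood, while others were not. ITGB1, at the 597, 279 and 165 CPM given above, had a log2 ratio of -1.09 in sham against naïve (interval -1.38 to -0.82), -1.85 in SCI against naïve (-2.17 to -1.56) and -0.76 in SCI against sham (-1.15 to -0.37). The interval excluded 0 in all 3 comparisons. CD27 was at -1.01 and -1.43 against naïve, and its SCI against sham ratio of -0.42 had an interval of -1.21 to 0.38. AIM2 was at -0.39 in sham against naïve (-0.95 to 0.12), and at -1.55 (-2.26 to -0.95) in SCI against naïve and -1.17 (-1.98 to -0.40) in SCI against sham.

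CXCR3 (-1.24 and -2.22), SSPN (-1.75 and -2.27) and CD86 (-1.59 and -2.32) also had lower levels in sham and SCI than in naïve cells. SSPN UMIs came from 50 naïve cells but from 3 sham and 4 SCI cells. As lists, 3 of 14 memory genes measured in sham against naïve and 4 of 13 in SCI against naïve were at least 2-fold lower and none higher, with medians of -0.17 and -0.10 against 0.01 and -0.02 over all genes. Of the memory genes measured, 4 and 6 were above 0 in the same comparisons. KLF6, a zinc finger factor, was at 0.45 (0.30 to 0.60) in sham and 0.62 (0.49 to 0.74) in SCI against naïve, and MARCKS at 0.27 (0.09 to 0.45) and 0.37 (0.21 to 0.53). CD80 stayed within 41.2 to 48.7 CPM in the 3 libraries. ITGB1 was the 1 of the 12 annexin, S100 and cytoskeletal genes that was at least 2-fold lower in sham or SCI against naïve, and none was higher, with medians of -0.27 and -0.08. In SCI against naïve 6 of the 12 were above 0, and ANXA1 was at 0.55 (0.26 to 0.84) in sham against naïve. The share of negative-called cells with TCL1A in the undrawn UMIs moved with these values, being lowest in naïve blood (23.3% against 36.8% and 38.5%), and its part in them was not tested.

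The atypical genes did not move together. ITGAX ratios were -0.20, -0.54 and -0.34 with intervals that included 0, and SOX5 was at 0.03 (-0.67 to 0.66) in sham against naïve but lower in SCI, at -1.87 (-3.04 to -0.98) against naïve and -1.90 (-3.16 to -0.86) against sham. FCRL3 was at 36.4, 77.8 and 123 CPM, a log2 ratio of 1.10 (0.42 to 1.75) in sham and 1.76 (1.23 to 2.31) in SCI against naïve, and 0.65 (0.07 to 1.29) in SCI against sham. FCRL5, at 113, 270.1 and 186 CPM, was highest in sham cells. In all, 2 of 16 atypical genes were at least 2-fold higher and 1 lower in sham against naïve, and 1 and 2 in SCI against naïve.

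The naïve and transitional genes did not move together. Of 12 measured, 6 were above 0 in sham against naïve, 3 of them at least 2-fold higher (CD72, PCDH9 and SOX4) and CD9 at least 2-fold lower, with a median of 0.14. In SCI against naïve 8 were above 0, with CD9 at least 2-fold higher, none lower and a median of 0.36. IGHD was at 0.48 (0.24 to 0.71) in sham and 0.56 (0.35 to 0.76) in SCI against naïve. CD72 was at 1.11 (0.75 to 1.46) and 0.74 (0.40 to 1.08). PCDH9, a protocadherin, was at 60.4, 197 and 91.3 CPM, with 1.70 (1.25 to 2.16) in sham against naïve, while TCL1A-positive cells of the same libraries gave -0.18. CD9 was at -1.14 (-2.25 to -0.27) in sham but 1.03 (0.55 to 1.5) in SCI against naïve, and BACH2 at -0.73 (-1.75 to 0.09) and 0.51 (-0.07 to 1.06). For IGHD and CD72 the level in naïve blood lay farthest from that of TCL1A-positive cells.

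Interferon-response genes were lowest in SCI blood. In SCI against naïve, 27 of 28 had a ratio below 0, 5 were at least 2-fold lower and 1 higher, with a median of -0.51 against -0.02 over all genes; in SCI against sham 6 of 27 were at least 2-fold lower and none higher, with a median of -0.63 against -0.04. Sham against naïve gave 1 gene at least 2-fold higher, none lower and a median of 0.14. TCL1A-positive cells gave medians of -0.36, -0.54 and 0.14 over the same list in the same order, so the list moved the same way in both B cell populations. IFIT1, an RNA sensor, was at 172, 213 and 57.7 CPM in naïve, sham and SCI cells, a ratio of -1.56 (-2.13 to -1.07) and -1.87 (-2.48 to -1.31). ISG15, a ubiquitin-like modifier, was at 1270, 1085 and 615 CPM, and RSAD2 (viperin) at 70.6, 101 and 28.8 CPM. IFI27 was the one above 0 in SCI against naïve, at 8.73, 52.6 and 67.3 CPM from 3, 2 and 6 cells.

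Among activation and immediate early genes, sham and SCI cells had higher CD69, at 144, 217 and 229 CPM (0.60, 0.23 to 0.95, and 0.67, 0.35 to 0.99, against naïve) and FOSB at 24.0, 57.2 and 57.7 CPM (1.26 in both). Of the 11 measured genes of this list, FOSB and NR4A1 were at least 2-fold higher in sham against naïve, and FOSB, NR4A1 and CCL4 in SCI against naïve, with none lower. The intervals of NR4A1 included 0, and the CCL4 UMIs of SCI blood lay mostly in 1 barcode. The list medians were 0.24 and 0.40. In TCL1A-positive cells they were 0.17 over 14 measured genes for sham and 0.64 over 15 for SCI. The medians of the 2 populations are thus over different genes and are not ranked. MKI67 had 59, 21 and 3 UMIs, a log2 ratio of -2.95 (-5.48 to -1.54) in SCI against naïve and -3.13 (-5.71 to -1.58) in SCI against sham. Of the 8 cell cycle genes measured in SCI against naïve, 5 were at least 2-fold lower and none higher, with a median of -2.30, against -0.12 in TCL1A-positive cells. Few cells carried these UMIs, and 76 of the MKI67 UMIs lay in the 16 cells of the mitotic cluster. MKI67 was seen in 13 naïve, 3 sham and 2 SCI cells, and the intervals treat UMIs of 1 cell as independent. LILRA4, a receptor best known from plasmacytoid dendritic cells, was at 23.3, 32.0 and 88.1 CPM, a log2 ratio of 1.91 (1.27 to 2.60) in SCI against naïve, with CLEC4C of the same list at 0 in all 3.

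The most extreme ratios often rested on few barcodes. S100A9 was at 7.27, 1099 and 0 CPM, and 477 of the 480 sham UMIs lay in a single barcode that also held most S100A8 and LYZ; without it sham against naïve was 0.21 in place of 7.17 on the log2 scale. CCL4, a chemokine of activated lymphocytes, was at 20.4, 11.4 and 324 CPM, with 180 of 202 SCI UMIs in 1 barcode, and its near-identical copy CCL4L2 had 162 of 164 SCI UMIs in 1 barcode. IGLC7, with 84, 6 and 88 UMIs, came from 4, 2 and 4 cells. CCL17, a ligand of CCR4, was at 127, 11.4 and 41.7 CPM from 36, 3 and 7 cells.

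Other named genes were spread over more cells. FAM118A was at 5.82, 16.0 and 88.1 CPM from 8, 7 and 46 cells, a ratio of 3.85 (2.84 to 5.20) in SCI against naïve and of 2.35 in TCL1A-positive cells. CCDC88A (girdin) was at 33.5, 50.4 and 131 CPM, with ratios of 1.97 (1.44 to 2.53) in TCL1A-negative and 1.31 in TCL1A-positive cells. CD9, a tetraspanin, was at 57.5, 25.2 and 117 CPM. SEL1L3 was at 88.0, 48.1 and 19.2 CPM, -2.14 (-3.19 to -1.34) in SCI against naïve, and CCZ1B, of a multigene family, at 50.9, 43.5 and 9.62 CPM. PLIN2 (58.2, 16.0 and 43.3 CPM), WDR73 (50.9, 13.7 and 36.9 CPM), MCTP2 (20.4, 57.2 and 56.1 CPM) and U62317.5 (50.9, 101 and 20.8 CPM) completed the rule.

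**Figure D5:**
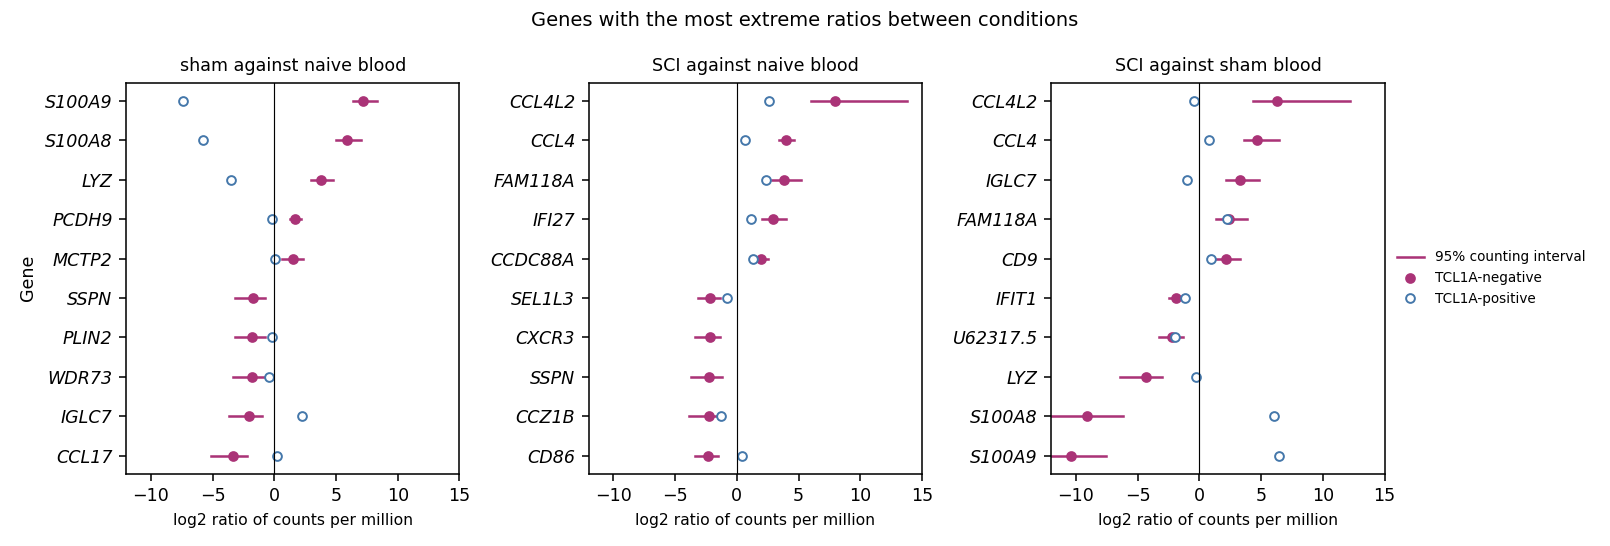
Log2 ratios of CPM (x axis) for the 5 highest and 5 lowest named genes of each comparison between conditions in TCL1A-negative B cells, with conditional binomial 95% intervals; open circles give the ratio in TCL1A-positive B cells where at least 20 counts were present, and lines at the edge go on beyond it. S100A9, S100A8, CCL4L2 and CCL4 are the most extreme and lie mostly in single barcodes, whereas ratios of FAM118A are above 0 in both populations (3.85 and 2.35 in SCI against naïve).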

How the data were processed

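The authors aligned reads with Cell Ranger 3.1.0 to GRCh38 and mm10 genes together, and the deposited values are raw UMI counts per gene and barcode, 34161760, 36007208 and 36487994 UMIs for naïve, sham and SCI blood. Member cells and gene lists were chosen with earlier results of these data known. Counts per gene (33538 human genes) were summed per library and population without 87 ribosomal and 13 mitochondrial genes, and tested with edgeR 4.0.16 (TMM, filterByExpr, R 4.3.3) with the 7 gate genes left out. T cells used as reference had at least 2 CD3 UMIs and 0 MS4A1 and CD79A. In simulated data for this comparison (9445 genes, 200 changed), 65% of changes of 1 and 100% of changes of 2 on the log2 scale were recovered. The changed genes all had an expected mean above 20 counts, with the same dispersion for every gene and no library effect. Recovery for genes with fewer counts or a wider spread was therefore not measured. Named genes were the 10 highest and 10 lowest fold changes among called genes with the same direction in 3 libraries and at least 20 CPM, and, between conditions, the 5 highest and 5 lowest ratios with at least 50 counts and 50 CPM, without immunoglobulin variable, ribosomal, mitochondrial and sex-tied genes. Clusters used 1500 variable genes, centred within libraries, 15 components, 15 neighbours and Leiden resolution 0.6 (leidenalg 0.10.2). Scrublet (scanpy 1.11.5) marked 2, 3 and 2 member cells, which were kept; no 2 libraries shared a member barcode, and pairs of blood libraries shared 5 to 10 barcodes of human cells.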

Additional observations from a re-analysis of the deposited data

Results flagged for a closer look

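For 3 listed genes, the difference between TCL1A-negative and TCL1A-positive cells went in opposite directions in the libraries, with a log2 ratio of at least 0.5 and a counting interval that excluded 0 each way. In the order naïve, sham and SCI, FCRL5 was at -0.79, 0.55 and 0.66. CCL4 was at -1.42, -2.0 and 1.91, the last with most UMIs in 1 barcode. IFI27 was at -1.86, 1.23 and -0.13. Its TCL1A-negative UMIs came from 3, 2 and 6 cells, with 14 of the 23 sham UMIs in 1 barcode. The intervals treat UMIs of 1 cell as independent. With 1 library per condition, the difference between libraries was not tested.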

How the results depend on the processing

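The share of B cells moved with depth. In naïve, sham and SCI blood it was 59.1%, 47.3% and 51.3% at 1000 UMIs per cell, 46.6%, 34.6% and 36.6% at 2000, 46.8%, 29.2% and 27.2% at 3000, and 50.9%, 26.9% and 30.5% with the gate on 50% of the UMIs; the 2000 and 3000 settings were chosen after seeing the data. Against TCL1A-positive cells, DESeq2 1.42.0 gave 108 higher and 57 lower of 9357 genes tested, and no library block 252 and 149 of 9357. Removal of cells with other-cell genes gave 175 and 123 of 7878. Thinning to 1000 UMIs gave 62 and 52 of 4118, and the gate on 50% of the UMIs 213 and 145 of 7900. Leaving out 1 library gave 232 to 445 higher and 138 to 323 lower genes of 9075 to 9521 tested, the lowest without the naïve library. Of the 681 calls, 469 to 681 were tested under each alternative, and none was called in the opposite direction. Many lost their call, however. The calls kept were 102 of 469 at 1000 UMIs and 165 of 681 with DESeq2. They were 272 of 625 without cells holding other-cell genes and 309 of 632 with the gate on 50% of the UMIs. Without the naïve library 325 of 673 were kept, and with RLE size factors in edgeR 666 of 681. The cause of each change was not tested, except that fewer genes or cells entered where stated. Of 74 listed or named genes, each tested in 10 to 14 of the alternatives, 47 kept their side of the threshold wherever they were tested, 23 lost it in at least 1 and 4 passed in at least 1.

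Between conditions, genes at least 2-fold higher and lower are given with their share of the genes measured in each setting. With no minimum count, sham against naïve had 1702 (11.7%) and 1153 (7.92%), and SCI against naïve 2021 (13.7%) and 1481 (10.0%). SCI against sham had 2223 (16.3%) and 1865 (13.7%). With at least 50 counts these were 28 (0.493%) and 79 (1.39%), 49 (0.821%) and 87 (1.46%), and 29 (0.734%) each way. At 1000 UMIs per cell 178 genes (3.88%) were lower in sham against naïve. SCI against naïve had 104 higher (2.06%) and 177 lower (3.51%), and SCI against sham 94 lower (2.66%). With all UMIs these shares were 3.33%, 2.18%, 3.35% and 2.22% in the same order. Without cells holding other-cell genes, SCI against sham had 92 lower (2.08%). At 1000 UMIs the ratios of S100A8 (-0.12), LYZ (-0.81) and IGLC7 (1.97) in sham against naïve, of CCL4 in SCI against naïve (-0.042) and of CCL4L2 (-1.85) and CCL4 (-0.87) in SCI against sham reversed, and without the barcode with most UMIs S100A8 (-0.27) and LYZ (-0.18) did. No paired analysis was possible because each condition had 1 library. Intervals cover counting error only.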

Other observations

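Genes outside the lists also separated TCL1A-negative from TCL1A-positive B cells. The following were chosen after their values were seen. None overlapped between the populations, which was also true of some genes that did not pass. KCNN4, a calcium-activated potassium channel of activated lymphocytes, stood at 106, 80.1 and 70.5 CPM in naïve, sham and SCI cells against 24.1, 28.0 and 23.2 CPM (log2 fold change 1.82, SE 0.17, edgeR adjusted p = 3.3e-07). EBI3, a subunit of the cytokines IL-27 and IL-35, was at 108, 126 and 109 CPM against 39.0, 47.0 and 38.0 CPM (1.49, SE 0.13). CTSH, a lysosomal cysteine protease, was at 352, 501 and 304 CPM against 163, 132 and 136 CPM. GSN, the actin-severing protein gelsolin, and SIGLEC10, an inhibitory receptor for sialic acids, were higher by 1.55 and 1.20 on the log2 scale.

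MIR155HG, the host transcript of miR-155, was at 69.1, 50.4 and 149 CPM against 44.2, 34.3 and 46.0 CPM (1.10, SE 0.19, edgeR adjusted p = 0.00052), with the SCI cells highest. Among the lower genes, BCL7A was at 29.1, 32.0 and 56.1 CPM against 101, 134 and 107 CPM, and LAIR1, an inhibitory receptor for collagen, was at 42.2, 36.6 and 41.7 CPM against 96.4, 87.7 and 85.7 CPM (-1.13, SE 0.14). What these genes do in these cells was not examined.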
